A study of Homo sapiens with 6 samples.

Results

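Collagen chain genes were taken from the deposited expression table of a TDP-43 knockdown in SH-SY5Y cells as every gene symbol made of COL, a type number, the letter A and a chain number. The rule found 44 of the 26372 genes in the table. They comprise 11 fibrillar collagens, 6 basement membrane (type IV) collagens and 27 others: 5 microfibril (type VI) chains, 10 fibril-associated chains, 2 multiplexins, 3 short-chain network chains, 4 transmembrane chains and 3 further genes (COL7A1, COL26A1 and COL28A1). A mean of 1 FPKM or more over all libraries, which was required for testing, was reached by 19 of the 44.

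Collagens are extracellular matrix proteins, most of them secreted, in which 3 chains wind into a triple helix, either copies of a single chain or products of different genes. Fibrillar types I, II, III, V and XI assemble into the banded fibrils of connective tissue, type IV forms the sheet of basement membranes, type VI forms beaded filaments close to cells, and type IX and its relatives sit on fibril surfaces. Fibrillar collagen expression is a hallmark of fibroblasts and other mesenchymal cells, while neurons are surrounded by little fibrillar matrix. Neuroblastoma lines can hold neuron-like (noradrenergic) cells and flat, substrate-adherent (mesenchymal) cells.

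The series measured poly(A) RNA of SH-SY5Y, a human neuroblastoma line, in 6 libraries. In 3 libraries (shT2 in the labels) the cells carried a stable lentiviral (U6-driven) shRNA against TDP-43, an RNA-binding protein encoded by TARDBP, and in 3 (shNC3) a control shRNA from the same vector. Per the labels' protocols the knockdown cells were selected and kept in puromycin, and for the control cells the protocols do not state this; both were grown in 15% fetal bovine serum. Each arm has a single name in the labels, and nothing says whether it was 1 clone or whether its 3 libraries were grown apart, so the p-values describe only library-to-library spread, which may be technical.

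TARDBP stood at 21.9, 20.7 and 20.98 FPKM (fragments per kilobase of transcript, scaled to library size) in the knockdown, against 50.3, 50.3 and 47.7 FPKM in the control libraries, a log2 fold change of -1.19 (limma adjusted p = 6.69e-08). The file gives no read numbers. Steps between low values put the depth at 52.3% to 94.3% of the deepest library in the knockdown and at 84.4% to 100% in the control. Over all tested genes 30.5% were called higher and 35.9% lower, which is the background for the marker counts that follow. Of 8 noradrenergic markers 6 rose, DBH fell (log2 fold change -0.28) and TH was listed at 0 in every library; the summed level was 935 to 1038 FPKM in the knockdown, against 528 to 538 FPKM in the control. Of 11 fibroblast and mesenchymal markers 5 rose and 5 fell, none was at 0 throughout a group, and the sum was 451 to 464 FPKM in the knockdown against 1300 to 1336 FPKM in the control. VIM (vimentin) made up that gap, at 266 ± 0.711 FPKM in the knockdown and 1118 ± 20.0 FPKM in the control (SD, n = 3 each). The other 10 summed to 185 to 199 FPKM in the knockdown and 189 to 199 FPKM in the control, which overlap. Within that sum single genes moved far in opposite directions. Mean PRRX1 was 0.0157 FPKM in the knockdown and 68.6 FPKM in the control, and mean FAP 0.670 and 13.1 FPKM. Means of DCN were 37.5 and 3.98 FPKM, of PDGFRA 64.4 and 24.2 FPKM, and of DPT 11.6 and 0.103 FPKM. THY1 and TWIST2 also fell, and PDGFRB and LUM also rose. Of 8 Schwann and glial markers 4 were tested, 3 rose and 1 fell; FABP7 was at 0 in all libraries, and the sum was 52.7 to 53.6 against 45.3 to 47.8 FPKM. Of 5 endothelial markers none was tested; CDH5 was at 0 throughout and PECAM1 at 0 in the knockdown, with sums of 0.181 to 0.249 against 0.327 to 0.480 FPKM. Of 5 chondrocyte and bone markers SOX9 was tested and fell, none was at 0 throughout a group, and the sum, most of it SOX9, was 13.96 to 14.6 against 26.4 to 28.2 FPKM. RUNX2, under the minimum mean, stood at 0.130, 0.0917 and 0.139 FPKM in the knockdown, against 1.55, 2.30 and 1.45 FPKM in the control. The groups overlapped for ACAN, SP7 and BGLAP. The part of these markers in the collagen results was not tested. In bulk RNA, fewer cells that make collagen and less collagen RNA per cell cannot be told apart.

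Collagen transcripts were lower in the TDP-43 knockdown. The 44 genes together held 275, 271 and 275 FPKM in knockdown libraries and 765, 758 and 777 FPKM in the control libraries. The ratio of the means was 0.357, and the groups lay far apart. Of the 19 tested genes 16 fell, 2 rose (COL9A2 and COL9A3) and 1 (COL10A1) did not pass an adjusted p of 0.05 by limma on log2(FPKM + 1) over all tested genes. Over all 13434 genes tested 66.3% were called, 35.9% lower and 30.5% higher. A fall of at least 2-fold on that scale was found for 13 of the 19 and for 7.95% of all tested genes, and a rise of that size for 0 of the 19 and for 3.31% of all. The median log2 fold change was -1.36 over the 19 and -0.020 over all. The ranges of the 2 groups did not overlap for 18 of the 19, and in 70.8% of all tested genes. For 6 of the 19 (COL27A1, COL6A3, COL7A1, COL13A1, COL16A1 and COL9A3) the mean was under 1 FPKM in one group, so these reached the minimum through the other group, and the counts above are descriptions. The same held for 847 of all 13434 tested genes, a smaller share. COL27A1, COL6A3, COL7A1 and COL13A1 are among the 13 with a fall of at least 2-fold.

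The split between higher and lower calls moves with the scaling of the table. Of all calls 45.9% were higher on the deposited scale, 58.7% under quantile normalization, 4.27% where each column was rescaled to an equal sum and 42.3% where 6 small RNAs were left out of that sum. The median of all genes moved by 0.11 under quantile normalization, by -0.80 with equal sums and by -0.028 with equal sums without the 6 small RNAs. Relative to the median of all genes the collagen median was -1.34 on the deposited scale, -1.32 under quantile normalization and -1.40 with equal sums. The 16 falls were called under each of 4 other scalings.

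**Figure D1:**
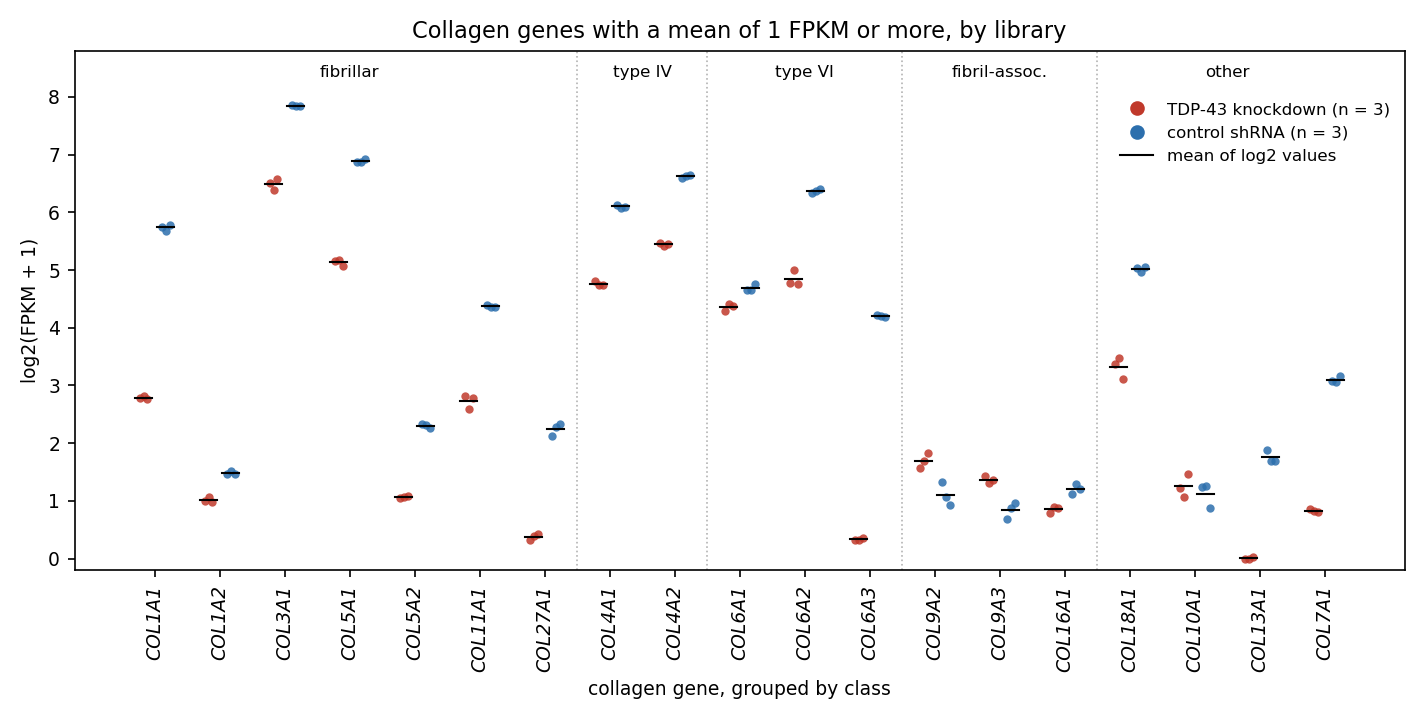
Levels of the 19 tested collagen genes as log2(FPKM + 1), 1 point per library, with TDP-43 knockdown libraries (red) left of control libraries (blue) and the mean as a line. The knockdown points lie below the control points for 16 genes and above them for COL9A2 and COL9A3, and the groups overlap for COL10A1.

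Of 11 fibrillar genes 7 were tested and all 7 of these were called lower, against 35.9% of all tested genes, with a median log2 fold change of -1.64 against -0.020 over all genes. COL3A1 (chromosome 2, 188974320 to 189012746, plus strand, GRCh38), the chain of the type III homotrimer found with type I in pliable tissues, was the most abundant collagen transcript in either group. It stood at 89.9, 82.4 and 94.3 FPKM in knockdown libraries, against 230.7, 227.6 and 229.7 FPKM in the control libraries. The highest knockdown value was well under the lowest control value, and COL3A1 fell by 1.36 on the log2 scale (standard error 0.050, limma adjusted p = 5.80e-08).

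COL1A1 (chromosome 17, 50183289 to 50201632, minus strand), the major chain of type I collagen, fell most among the tested fibrillar genes on the log2(FPKM + 1) scale. It stood at 5.85, 6.06 and 5.82 FPKM in knockdown libraries, against 52.4, 50.4 and 54.3 FPKM in the control libraries. The mean was 8.86-fold lower in the knockdown, and the log2 fold change was -2.95 (standard error 0.050, adjusted p = 5.92e-10). Its partner COL1A2 (chromosome 7, 94394561 to 94431232, plus strand), which joins COL1A1 chains in the type I heterotrimer, was low in both groups. It stood at 0.992, 1.11 and 0.964 FPKM in the knockdown, against 1.75, 1.85 and 1.78 FPKM in the control, without overlap, and fell by 0.47 (standard error 0.084, adjusted p = 0.00117). That change was -0.76 with a pseudocount of 0.1, since a pseudocount of 1 understates the change of low genes.

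COL5A1 (chromosome 9, 134641774 to 134844843, plus strand) encodes the main chain of type V collagen, which starts and limits the growth of type I fibrils. It stood at 34.8, 34.98 and 32.4 FPKM in knockdown libraries, against 116.2, 115.7 and 120.3 FPKM in the control libraries. The 3 knockdown values lay close together, far under any control value. COL5A1 fell by 1.76 (standard error 0.044, adjusted p = 4.83e-09). COL5A2 (chromosome 2, 189031896 to 189225312, minus strand), the second chain of the type V heterotrimer, stood at 1.07, 1.10 and 1.11 FPKM in the knockdown, against 4.05, 4.00 and 3.78 FPKM in the control. It fell by 1.24 (standard error 0.075, adjusted p = 1.21e-06). COL11A1 (chromosome 1, 102876467 to 103108872, minus strand), a chain of cartilage type XI collagen that can also pair with type V chains, stood at 6.03, 5.01 and 5.87 FPKM in the knockdown, against 19.9, 19.5 and 19.6 FPKM in the control. Its groups lay apart, with a log2 fold change of -1.64 (standard error 0.069, adjusted p = 1.28e-07).

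COL27A1 (chromosome 9, 114155560 to 114312511, plus strand), a fibrillar collagen of cartilage, had the lowest ratio of means among the tested fibrillar genes. It stood at 0.248, 0.318 and 0.341 FPKM in the knockdown, against 3.36, 3.84 and 4.01 FPKM in the control. The mean was 12.4-fold lower in the knockdown, with a log2 fold change of -1.86 (standard error 0.092, adjusted p = 3.34e-07), or -3.26 with a pseudocount of 0.1. The other 4 fibrillar genes (COL2A1, COL5A3, COL11A2 and COL24A1) were under the minimum mean. COL2A1, the type II chain of cartilage, stood at 0.0737, 0.0493 and 0.122 FPKM in the knockdown, against 0, 0 and 0.0457 FPKM in the control, and COL11A2, a further type XI chain, at 0.588, 0.917 and 0.669 FPKM in the knockdown, against 0.508, 0.274 and 0.387 FPKM in the control. Both were higher in the knockdown libraries without overlap, and neither was called in the fit with no filter. COL5A3 was listed at 0 throughout the knockdown, against 0.0700, 0.0208 and 0.0952 FPKM in the control.

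Both abundant type IV genes fell. Type IV collagen is the network-forming collagen of every basement membrane, and the ubiquitous form joins COL4A1 with COL4A2 chains. COL4A1 (chromosome 13, 110148963 to 110307233, minus strand) stood at 27.2, 25.6 and 25.8 FPKM in knockdown libraries, against 69.1, 66.7 and 67.3 FPKM in the control libraries. COL4A2 (chromosome 13, 110305812 to 110513209, plus strand) stood at 43.1, 41.9 and 42.7 FPKM in the knockdown, against 95.9, 98.1 and 99.8 FPKM in the control. In both groups COL4A2 was above COL4A1, and the knockdown held 0.387 times the control level of COL4A1 and 0.435 times that of COL4A2. The log2 fold changes were -1.34 (standard error 0.042) and -1.18 (standard error 0.037), with an adjusted p of 2.12e-08 and 2.11e-08.

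COL4A1 and COL4A2 lie head to head on opposite strands and are a textbook example of a gene pair with a shared promoter. In RefSeq (GRCh38.p14) 126 bases separate their first bases, shown here because both genes moved together, at chr13:110307158-110307283 on the plus strand, which is the COL4A2 strand. Capitals mark a CCAAT and a GGGCGG motif:
COL4A1-COL4A2: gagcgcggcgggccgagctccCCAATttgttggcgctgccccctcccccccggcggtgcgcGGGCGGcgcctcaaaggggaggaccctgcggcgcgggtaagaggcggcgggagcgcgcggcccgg
The stretch is 80.2% G and C. GENCODE version 29 places the starts differently, so that both genes overlap there, and whether strand was used in counting is not given in the sources used here.

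The remaining type IV genes were near the floor in both groups. COL4A4, which with COL4A3 and COL4A5 forms the network of the kidney filter, stood at 0.262, 0.364 and 0.280 FPKM in the knockdown, against 0.188, 0.165 and 0.195 FPKM in the control. Its head-to-head neighbour COL4A3, 111 bases away, stood at 0.0761, 0.0292 and 0.0561 FPKM in the knockdown, against 0.0302, 0.0393 and 0.0180 FPKM in the control, with overlapping groups. COL4A5 was listed at 0 throughout the knockdown, against 0.0379, 0 and 0.0450 FPKM in the control, and COL4A6 did not exceed 0.0472 FPKM in any library.

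The chains of type VI collagen, which assemble as a heterotrimer of COL6A1, COL6A2 and COL6A3 into beaded microfilaments around cells, all fell but by very different amounts. COL6A3 (chromosome 2, 237324003 to 237414375, minus strand), the longest of these chains, stood at 0.246, 0.256 and 0.288 FPKM in knockdown libraries, against 17.7, 17.4 and 17.1 FPKM in the control libraries. Its mean was 66.1-fold lower in the knockdown, the largest change of the 19 tested genes on the log2(FPKM + 1) scale (log2 fold change -3.87, standard error 0.065, adjusted p = 5.92e-10). COL6A2 (chromosome 21, 46098097 to 46132849, plus strand) stood at 26.2, 31.1 and 25.9 FPKM in the knockdown, against 79.4, 81.5 and 83.7 FPKM in the control. Knockdown library 2 was the highest of its group, still far below the controls, and COL6A2 fell by 1.53 (standard error 0.069, adjusted p = 1.88e-07).

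COL6A1 (chromosome 21, 45981737 to 46005050, plus strand) changed least among the called collagens that fell. It stood at 18.6, 20.3 and 19.7 FPKM in the knockdown, against 24.0, 24.2 and 26.1 FPKM in the control, close but not overlapping. It fell by 0.33 (standard error 0.055, adjusted p = 7.45e-04), and by 0.17 with quantile normalization (adjusted p = 0.0373). COL6A1 and COL6A2 are neighbours on the same strand, 93046 bases apart. COL6A5 and COL6A6, chains that can take the place of COL6A3 in the heterotrimer, were under the minimum mean. COL6A6 stood at 0.747, 0.697 and 0.658 FPKM in the knockdown, against 0.555, 0.570 and 0.497 FPKM in the control, and COL6A5 at 0.0889, 0.0797 and 0.0656 FPKM in the knockdown, against 0.00686, 0 and 0.00816 FPKM in the control. Both were far below the control level of COL6A3. In the knockdown COL6A3 stood at 0.246, 0.256 and 0.288 FPKM, under COL6A6 and above COL6A5 in each library. Whether either chain took its place was not tested.

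The 250 bases before the RefSeq starts (GRCh38.p14) of COL6A3 (chr2:237414165-237414414, minus strand) and COL6A2 (chr21:46097862-46098111, plus strand) are shown because these partners of one heterotrimer differed in the size of their fall. Each is written 5′ to 3′ on its gene's strand, with capitals for the CCAAT box, the GC box GGGCGG, the TATA box TATAAA or the TEAD motif GGAATG, on either strand:
COL6A3: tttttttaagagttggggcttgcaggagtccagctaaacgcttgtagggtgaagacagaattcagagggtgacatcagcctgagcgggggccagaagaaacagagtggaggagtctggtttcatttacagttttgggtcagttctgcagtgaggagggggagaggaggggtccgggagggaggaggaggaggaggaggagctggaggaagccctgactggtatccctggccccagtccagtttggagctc
COL6A2: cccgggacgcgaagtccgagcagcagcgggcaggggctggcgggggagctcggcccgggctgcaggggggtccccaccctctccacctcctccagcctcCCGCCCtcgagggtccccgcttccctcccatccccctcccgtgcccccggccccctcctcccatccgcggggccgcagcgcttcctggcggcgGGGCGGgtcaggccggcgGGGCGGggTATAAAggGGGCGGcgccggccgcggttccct
The COL6A3 stretch is 56.0% G and C and holds none of these motifs. The COL6A2 stretch is 79.6% G and C and holds 4 GGGCGG and 1 TATAAA. In the GENCODE positions COL6A3 starts at 237414375, so most of its stretch lies inside the gene. COL6A2 starts there at 46098097, so only the last bases of its stretch do. The difference in motifs is thus given for the RefSeq starts only, and bases before the GENCODE starts were not examined. Of the 19 tested genes 13 had promoter windows in RefSeq, 17 windows of 300 bases in all; COL1A1, COL1A2, COL3A1, COL5A2, COL6A1 and COL9A3 had none in the table used. Of these 17 windows 12 held GGGCGG, 5 CCAAT, 6 TATAAA and 1 GGAATG on either strand, against 44.95%, 34.6%, 11.5% and 14.0% of 35116 windows of all genes. A match in letters is a description and not a binding site.

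**Figure D2:**
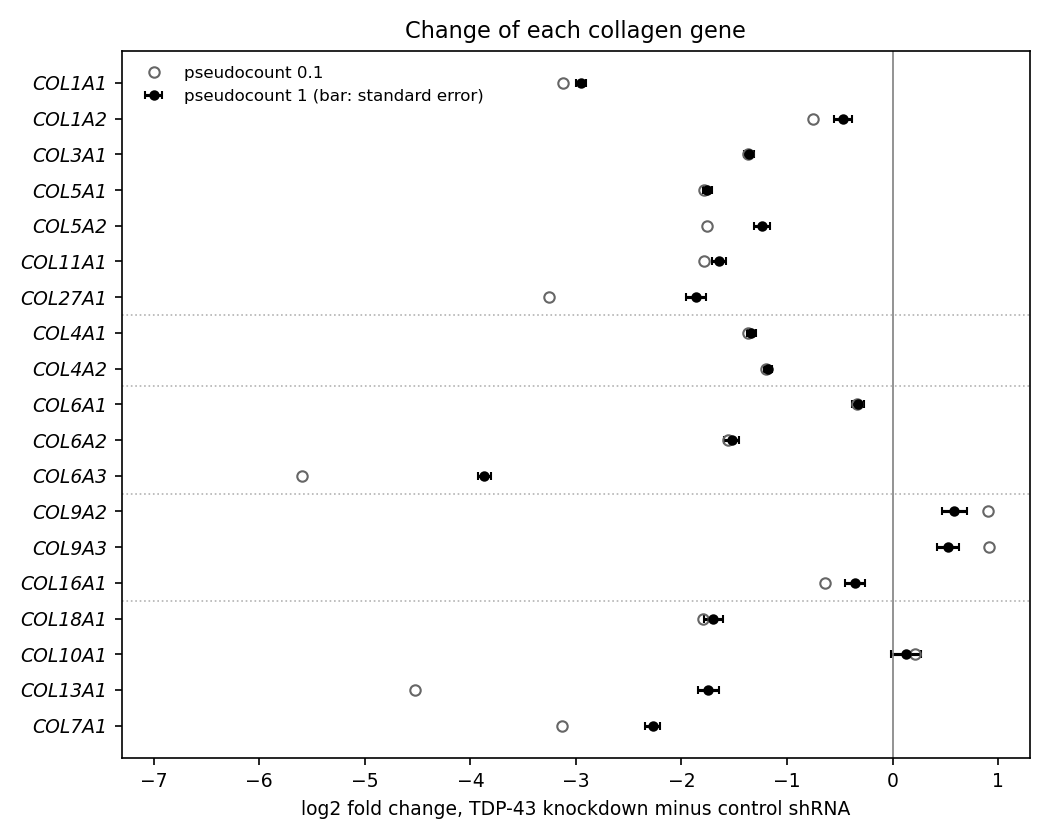
Log2 fold change (TDP-43 knockdown minus control shRNA, n = 3 each) of the 19 tested collagen genes on the log2(FPKM + 1) scale, with standard errors as bars; open circles give the change with a pseudocount of 0.1. COL6A3 stands farthest to the left at -3.87, and the open circles show that COL13A1, COL27A1 and COL6A3 change more when less is added to their low knockdown values.

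Type IX collagen moved the other way. Its chains COL9A1, COL9A2 and COL9A3 form a heterotrimer that decorates type II fibrils in cartilage, and all were higher in the knockdown at low levels. COL9A2 (chromosome 1, 40300487 to 40317813, minus strand) stood at 1.95, 2.24 and 2.54 FPKM in knockdown libraries, against 1.4997, 1.11 and 0.905 FPKM in the control libraries. COL9A3 (chromosome 20, 62816244 to 62841159, plus strand) stood at 1.68, 1.47 and 1.58 FPKM in the knockdown, against 0.614, 0.834 and 0.951 FPKM in the control. The groups did not overlap for either gene, although the control values of COL9A2 were spread widely. The rises were 0.59 (standard error 0.12, adjusted p = 0.00270) and 0.52 (standard error 0.10, adjusted p = 0.00195), or 0.91 and 0.92 with a pseudocount of 0.1. With columns rescaled to equal sums neither passed, at 0.030 and 0.048 (adjusted p = 0.828 and 0.704). With the 6 small RNAs left out of those sums both did, at 0.57 and 0.51 (adjusted p = 0.00354 and 0.00232).

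COL9A1 was under the minimum mean, at 0.977, 0.730 and 0.879 FPKM in the knockdown and 0.0850, 0.207 and 0.152 FPKM in the control. Fitted with no filter it was higher by 0.70 (standard error 0.067, adjusted p = 0.00175). COL16A1 (chromosome 1, 31652247 to 31704319, minus strand), a fibril-associated chain of many tissues, fell instead. It stood at 0.720, 0.857 and 0.838 FPKM in the knockdown, against 1.18, 1.45 and 1.30 FPKM in the control, a log2 fold change of -0.35 (standard error 0.094, adjusted p = 0.00960), or -0.64 with a pseudocount of 0.1. The other 6 fibril-associated chains (COL12A1, COL14A1, COL19A1, COL20A1, COL21A1 and COL22A1) stayed at or under 0.183 FPKM in every library, and COL20A1 was listed at 0 in all 6.

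Among the other types COL18A1 (chromosome 21, 45405137 to 45513720, plus strand), a basement membrane multiplexin whose end fragment is endostatin, was the most abundant. It stood at 9.31, 10.1 and 7.63 FPKM in the knockdown, against 31.9, 30.1 and 32.1 FPKM in the control. Its knockdown values varied among themselves but lay far below the controls, with a log2 fold change of -1.70 (standard error 0.089, adjusted p = 4.90e-07). COL7A1 (chromosome 3, 48564073 to 48595267, minus strand), which forms the anchoring fibrils that hold the epidermis to the dermis, stood at 0.822, 0.771 and 0.740 FPKM in the knockdown, against 7.48, 7.36 and 7.94 FPKM in the control. Its mean was 9.76-fold lower in the knockdown (log2 fold change -2.27, standard error 0.072, adjusted p = 2.16e-08).

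COL13A1 (chromosome 10, 69801867 to 69964275, plus strand), a transmembrane collagen of neuromuscular synapses, was listed at 0, 0 and 0.0246 FPKM in the knockdown, against 2.70, 2.24 and 2.23 FPKM in the control. It was all but absent from the knockdown libraries as listed, and its log2 fold change was -1.75 (standard error 0.099, adjusted p = 7.87e-07), or -4.53 with a pseudocount of 0.1. With any 1 control library left out its mean no longer reached 1 FPKM. COL10A1 (chromosome 6, 116118923 to 116158747, minus strand), the chain of hypertrophic cartilage, stood at 1.35, 1.08 and 1.76 FPKM in the knockdown, against 1.37, 1.39 and 0.837 FPKM in the control. The groups overlapped and the change was 0.13 (standard error 0.14, adjusted p = 0.453). The value rests on single libraries, as it was 0.0035 without control library 3, 0.021 without knockdown library 3 and 0.22 without knockdown library 2. Under equal column sums COL10A1 was called lower, at -0.38 (adjusted p = 0.0221), and with the 6 small RNAs left out of those sums it was 0.11 (adjusted p = 0.516). COL10A1 lies within NT5DC1, a gene on the opposite strand, so its reads cannot be assigned with certainty where strand is not known. In GENCODE version 29 COL9A3 likewise overlaps TCFL5, COL18A1 overlaps SLC19A1, and COL5A1, COL4A2 and COL18A1 hold antisense genes. COL3A1 and the low genes COL1A2, COL5A2 and COL16A1 also overlap genes on the opposite strand.

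The partner chains of a heterotrimer can be set side by side because FPKM is a level per length. There were 7 ratios with both chains at a mean of 1 FPKM or more, of which the pairs with COL6A3 were added after their values were seen, and each was tested by an exact two-sided permutation test over libraries. The smallest p that 3 against 3 libraries allow is 0.1, so no ratio could pass 0.05. Ratios with an exact p of 0.1 had 0.14 after Benjamini-Hochberg adjustment over the 7. The ratio of COL1A1 to COL1A2 was 5.89, 5.48 and 6.04 in knockdown libraries and 30.0, 27.2 and 30.6 in the control libraries. The excess of COL1A1 over its partner was thus smaller in every knockdown library, a log2 difference of -2.33 (exact p = 0.1).

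The ratio of COL6A3 to COL6A1 was 0.0132, 0.0126 and 0.0146 in knockdown libraries and 0.737, 0.720 and 0.656 in the control libraries. In the control both chains were of like abundance, and in the knockdown COL6A3 was nearly missing beside its partner (log2 difference -5.71, exact p = 0.1). The ratio of COL6A3 to COL6A2 was 0.00939, 0.00822 and 0.0111 in the knockdown and 0.223, 0.214 and 0.205 in the control. The ratio of COL6A1 to COL6A2 was 0.710, 0.653 and 0.761 in the knockdown and 0.303, 0.297 and 0.312 in the control, a log2 difference of 1.22 (exact p = 0.1). The groups did not overlap for any of these 3 ratios.

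The ratio of COL4A1 to COL4A2 moved little, at 0.630, 0.611 and 0.603 in the knockdown and 0.721, 0.680 and 0.674 in the control. The groups did not overlap, and the log2 difference was -0.17 (exact p = 0.1). The ratio of COL5A1 to COL5A2 was 32.5, 31.9 and 29.2 in the knockdown and 28.7, 28.9 and 31.8 in the control. These groups overlapped, with a log2 difference of 0.064 (exact p = 0.2), which does not show that the ratio was the same. The ratio of COL9A2 to COL9A3 was 1.16, 1.53 and 1.61 in the knockdown and ran more widely in the control, at 2.44, 1.33 and 0.952 (log2 difference -0.039, exact p = 1.0).

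**Figure D3:**
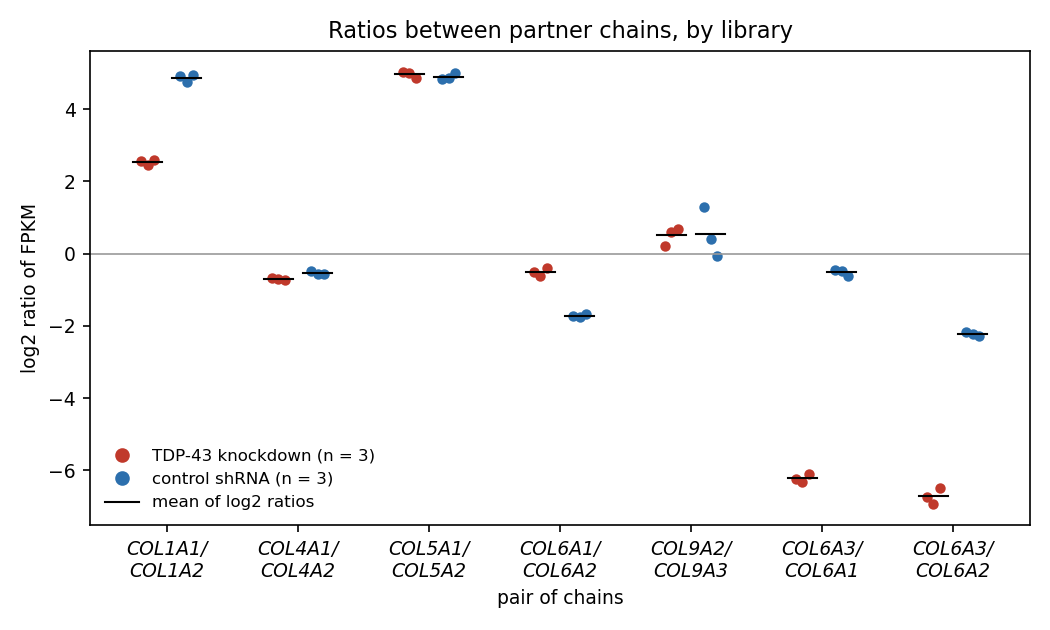
Log2 ratio of FPKM between chains that share a heterotrimer, 1 point per library, with TDP-43 knockdown libraries (red) left of control libraries (blue) and the mean as a line. The pairs with COL6A3 lie lowest in the knockdown, COL1A1 over COL1A2 is lower in the knockdown, COL6A1 over COL6A2 is higher, and the groups overlap for COL5A1 over COL5A2 and COL9A2 over COL9A3.

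The order of levels shifted with these unequal changes. In the knockdown COL3A1 (88.9 ± 6.05 FPKM, SD, n = 3) was followed by COL4A2 (42.6 ± 0.642), COL5A1 (34.1 ± 1.44), COL6A2 (27.8 ± 2.91), COL4A1 (26.2 ± 0.856) and COL6A1 (19.6 ± 0.857), and the libraries of COL6A2 and COL4A1 overlapped. In the control COL3A1 (229.3 ± 1.59 FPKM) was followed by COL5A1 (117.4 ± 2.50), COL4A2 (97.9 ± 1.96), COL6A2 (81.5 ± 2.11), COL4A1 (67.7 ± 1.27) and COL1A1 (52.4 ± 1.96), with no overlap between these neighbours. COL1A1 stood in place 8 in the knockdown and in place 6 in the control, COL6A1 in place 6 and in place 8, and COL6A3 in place 18 and in place 10 of the 19. In the knockdown the libraries of COL1A1 overlapped those of COL11A1, the next in order. Those of COL6A3 overlapped those of COL27A1, the one before it, so these knockdown places are not settled.

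By class, fibrillar chains made up 50.3 ± 1.46% of summed collagen FPKM under knockdown and 55.9 ± 0.159% in the control (SD, n = 3 each), and type IV chains 25.2 ± 0.382% and 21.6 ± 0.108%. The summed level of type IV was 0.417 times and that of fibrillar chains 0.321 times the control level. Type VI chains held 17.7 ± 1.46% and 16.2 ± 0.251%, and fibril-associated chains 2.07 ± 0.113% and 0.484 ± 0.0328%. COL1A1 alone took 2.16 ± 0.0667% in the knockdown and 6.83 ± 0.175% in the control, while COL3A1 took 32.4 ± 1.96% and 29.9 ± 0.311%. Collagen RNA was led by types III, IV, V and VI in both groups, at a lower sum in the knockdown.

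**Figure D4:**
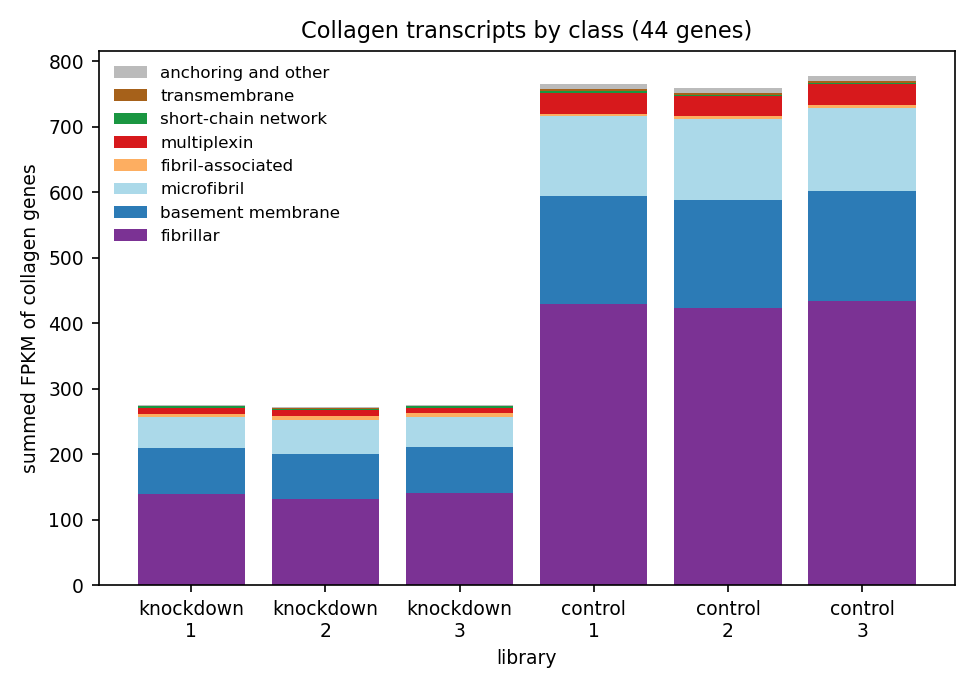
Summed FPKM of the 44 collagen genes in each library, TDP-43 knockdown libraries left of control libraries, stacked by class. The knockdown bars reach 271 to 275 FPKM and the control bars 758 to 777 FPKM, and fibrillar, basement membrane and microfibril chains make up most of every bar.

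The 25 collagen genes under the minimum mean had at most 0.680 FPKM on average. Fitted with no filter, 6 of them were called higher and 2 lower. With no filter 15.4% of all 26372 genes were called higher and 18.5% lower, while of the 6656 genes with a mean under 1 FPKM that were not at 0 throughout 10.1% were called higher and 9.81% lower. The 6 were COL9A1, COL23A1, COL6A6, COL6A5, COL4A4 and COL28A1. COL23A1, a transmembrane collagen, stood at 1.12, 0.929 and 1.01 FPKM in the knockdown, against 0.381, 0.286 and 0.352 FPKM in the control, the groups far apart (log2 fold change 0.59, adjusted p = 9.86e-04). The 2 called lower were COL15A1, a multiplexin of basement membranes, and COL25A1, a transmembrane collagen of neurons. COL15A1 was listed at 0 in each knockdown library and at 0.183, 0.155 and 0.273 FPKM in the control. COL25A1 was listed at 0 in each knockdown library and at 0.234, 0.254 and 0.142 FPKM in the control. An exact 0 in this table can be a failed estimate, so these are given as listed. Depth limits values this low, and knockdown libraries reached 52.3% to 94.3% of the deepest library.

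Genes that modify, export, process and bind collagen were taken from 5 lists chosen with earlier results of these data known. Together 50 of 66 listed genes in the table were tested, 34 fell, 5 rose and 11 did not pass, while over all tested genes 35.9% fell and 30.5% rose. P4HA3, PCOLCE2 and NID2 reached the minimum mean through the control and ADAMTS14 through the knockdown, with a mean under 1 FPKM in the other group, so the counts of these lists are descriptions. Collagen modification and folding takes place in the endoplasmic reticulum, where prolines and lysines are hydroxylated before the helix closes. Of 17 tested genes on that list 13 fell and 1, FKBP10, rose, with a median log2 fold change of -0.57 against -0.020 over all genes. The prolyl 4-hydroxylase subunit P4HA3 was listed at 0.0461, 0 and 0.0682 FPKM in the knockdown, against 5.91, 6.80 and 6.99 FPKM in the control. P4HA2 stood at 5.12, 4.54 and 5.79 against 18.8, 18.2 and 17.7 FPKM, and P4HA1 at 13.5, 12.4 and 12.9 against 31.3, 31.0 and 29.4 FPKM. The groups did not overlap for any of these 3 catalytic subunits (log2 fold changes -2.86, -1.65 and -1.18, adjusted p from 2.06e-08 to 2.65e-07). SERPINH1, the collagen chaperone HSP47, stood at 40.0, 40.6 and 39.2 FPKM in the knockdown, against 81.5, 79.4 and 83.2 FPKM in the control (log2 fold change -1.01, adjusted p = 7.38e-08). FKBP10, a prolyl isomerase of procollagen folding, rose by 0.24 and turned to -0.64 with columns rescaled to equal sums.

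The export list gathers genes of the large coat vesicles that carry procollagen out of the endoplasmic reticulum. Of 8 tested genes 3 fell, 0 rose and 5 did not pass, a share of falls near the 35.9% of all tested genes, with a median of -0.10; with quantile normalization 3 were called higher and 3 lower. The coat gene SEC24D stood at 11.2, 9.92 and 10.98 FPKM in the knockdown, against 34.3, 35.6 and 34.8 FPKM in the control, a log2 fold change of -1.62 (adjusted p = 3.44e-08). SEC23A and SAR1B fell by 0.47 and 0.45 (adjusted p = 3.40e-04 and 0.00194). MIA3, which encodes the procollagen receptor TANGO1, stood at 26.6, 24.0 and 25.6 FPKM in the knockdown, against 25.8, 26.2 and 24.8 FPKM in the control, with overlapping groups.

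In the processing and cross-linking list, 6 of 9 tested genes fell, 2 (PCOLCE and ADAMTS14) rose and LOXL3 did not pass, with a median of -0.61. Over all tested genes 35.9% fell and 30.5% rose, with a median of -0.020. The lysyl oxidase family oxidises lysines so that collagen molecules cross-link. LOXL2 stood at 3.96, 3.55 and 3.86 FPKM in the knockdown, against 36.5, 37.8 and 36.9 FPKM in the control, a log2 fold change of -2.99 (adjusted p = 8.79e-10). LOX, the founding member, stood at 6.96, 6.45 and 7.004 against 13.7, 14.3 and 13.1 FPKM (-0.91, adjusted p = 2.14e-06). ADAMTS3, a procollagen amino-propeptidase, and PCOLCE2, an enhancer of carboxy-propeptide removal, fell by 1.24 and 1.33 (adjusted p = 1.08e-06 and 9.22e-06). PCOLCE, the related enhancer, rose by 0.42 and ADAMTS14 by 0.46, and both were below 0, at -0.48 and -0.04, with columns rescaled to equal sums.

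Among collagen receptors 6 of 7 tested genes fell, 0 rose and ITGA11 did not pass, with a median of -1.18. For this list and the next, the background over all tested genes was 35.9% lower and 30.5% higher, with a median of -0.020. With quantile normalization ITGA11 was called higher (0.25, limma adjusted p = 0.0322) and DDR2 no longer passed. ITGA2, whose product pairs with ITGB1 as a collagen-binding integrin, stood at 2.79, 1.87 and 2.88 FPKM in the knockdown, against 73.0, 71.8 and 71.6 FPKM in the control. This was a log2 fold change of -4.39 (adjusted p = 4.38e-09). ITGB1, MRC2 (a receptor that takes up collagen fragments) and ITGA1 fell by 1.35, 1.37 and 1.18 (adjusted p from 9.81e-09 to 1.28e-06). Of 9 tested fibril partners, proteins that bind collagen fibrils or networks, 6 fell, 2 (DCN and LUM) rose and MATN2 did not pass, with a median of -1.15. Fibronectin, FN1, stood at 29.4, 28.8 and 28.8 FPKM in the knockdown, against 622, 619 and 620 FPKM in the control, far apart (-4.37, adjusted p = 1.14e-11). SPARC, a collagen-binding matrix protein, and NID2, a basement membrane linker, fell by 2.85 and 2.22 (adjusted p = 2.29e-10 and 5.27e-08). DCN, decorin, which coats fibrils of types I and III, rose by 2.96 (adjusted p = 9.50e-08). LUM, lumican, a related fibril-coating proteoglycan, rose by 0.49 and stood at -0.33 with columns rescaled to equal sums.

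**Figure D5:**
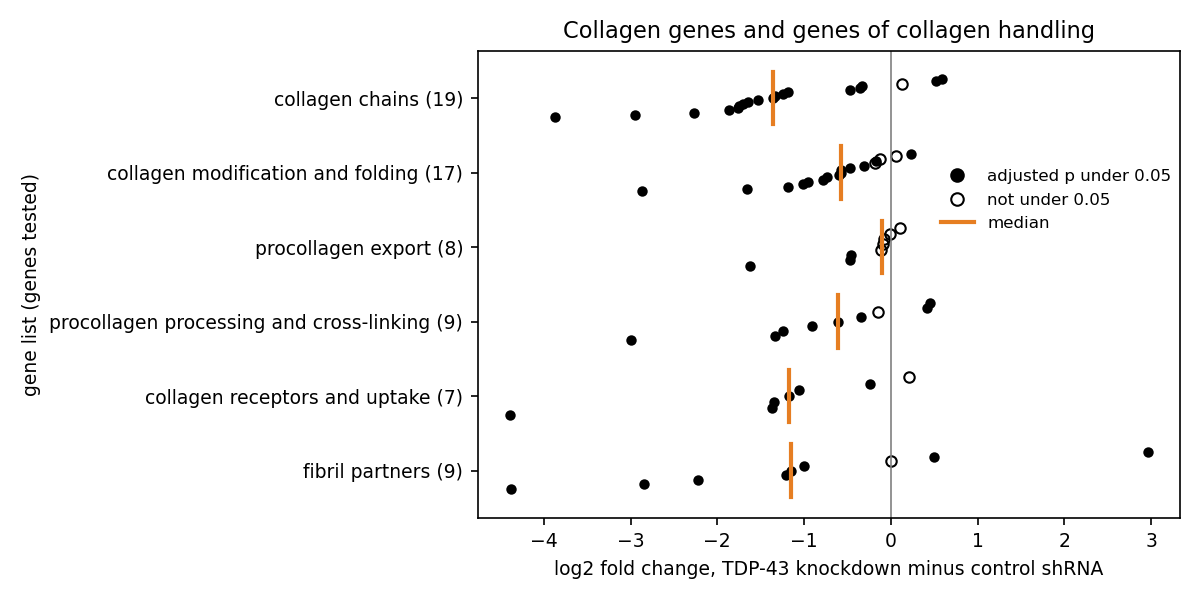
Log2 fold change (TDP-43 knockdown minus control shRNA) of tested collagen genes and of 5 lists of genes that handle or bind collagen, 1 point per gene, filled where the limma adjusted p was under 0.05, with the median as a line. Most points lie below 0, ITGA2, FN1 and COL6A3 lie farthest to the left, and DCN farthest to the right.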

How the data were processed

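Poly(A) RNA of 6 SH-SY5Y libraries was analysed, 3 per group, with groups and replicate numbers from the sample titles. The authors deposited 1 FPKM value for every gene in every library. TopHat2 2.1.0, SAMtools, Cuffdiff 2.2.1 and the build hg38 are named per the submitters' processing notes. What each tool did, which annotation was used and whether strand was counted is not stated there. The collagen genes, their classes, the gene lists and the alternatives were chosen with earlier results of these data known.

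Values were taken as log2(FPKM + 1). The 13434 genes whose mean reached 1 FPKM were compared two-sided by limma-trend (limma 3.58.1, R 4.3.3), adjusted by the Benjamini-Hochberg method over all of them, and called at 0.05. The code was tested on simulated data. Ratios of chains were tested in Python 3.11.15 with scipy 1.17.1. Depth was set relative to control library 1 by the most frequent ratio between low values, those under 0.3 FPKM. No pair of libraries shared more than 1 identical non-zero value. Every collagen gene with a mean of 1 FPKM or more is described, and up to 4 called genes of each list with the largest change and no overlap; genes behind a count of 5 or fewer, FKBP10, PCOLCE, ADAMTS14, LUM and MIA3 among them, were named after their values were seen. Gene positions are from GENCODE version 29 (GRCh38, the assembly of hg38) and promoters from RefSeq. The alternatives used a pseudocount of 0.1 or 0.5, a filter at 5 FPKM or none, 4 other scalings, a replicate block, limma without trend and leaving out each library.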

Additional observations from a re-analysis of the deposited data

How the results depend on the processing

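The count of collagen genes called lower was 16 under both other pseudocounts, the median-of-ratios, quantile and small-RNA-free rescalings, the replicate block and limma without trend. It ran from 14 to 16 with 1 library left out, where COL13A1 or COL16A1 missed the minimum mean. With a minimum mean of 5 FPKM 10 genes were left, 10 lower and 0 higher. With no filter 8 were higher and 18 lower. The median was then -0.036 over the 44, which include the genes near the floor, and -1.36 over the 19 tested genes. The median of the tested genes was -1.56 and -1.48 with pseudocounts of 0.1 and 0.5, -1.58 with a minimum mean of 5 FPKM, -1.23 with quantile normalization, -1.39 with columns rescaled to equal sums without the small RNAs, and -1.40 to -1.32 with 1 library left out. Under equal column sums it was -2.22, 0 collagen genes were higher, COL10A1 was called lower at -0.38, 522 of all genes were higher and 11689 lower, and 1 gene of the 5 pathway lists was higher; that count was 9 with quantile normalization. On log2(FPKM + 1) the ratio of COL5A1 to COL5A2 changed by -0.52 and that of COL9A2 to COL9A3 by 0.064. A pseudocount of 1 understates the change of the low gene COL5A2, which was -1.24, against -1.76 with a pseudocount of 0.1. COL5A1 changed by -1.76 and -1.78 in these 2 settings, so the -0.52 comes with the pseudocount. With 1 library left out the ratio of COL9A2 to COL9A3 changed by -0.35 to 0.34, so its direction rests on single libraries. The causes of the other shifts were not tested. With the replicate block 2 collagen genes were higher and 16 lower, as without it, and 8561 of all genes were called. Correlations of same-numbered deviations were -0.018, -0.18 and -0.091. With 3 libraries per group these cannot decide whether the replicate numbers pair the libraries, and the labels do not say. Depth limits the genes under 1 FPKM. The planned protein features were not computed.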
